A study of Mus musculus with 6 samples.

Results

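Insulin, AKT and mTOR signaling was examined through 35 genes, named in a list and matched by symbol to the 43432 genes of the deposited expression table. All 35 were found once each, and all 35 had enough reads to be tested. The study sequenced RNA from right and left atrial tissue of wild-type mice labelled C57/Bl6J, in 2 groups of 3 mice. The obese mice received a high-fat diet (HFD) from 6 weeks of age for 10 weeks, and the lean mice received control chow over the same period. The sample labels contradict each other. For all 6 mice the diet in the title is the reverse of the diet in the treatment field. The data columns are named case or control, and case are the mice with a high-fat title. The titles were followed, so every direction reported here rests on them. The values are normalized counts, which are read counts divided by 1 scaling factor per mouse. Between 15874251 and 17351467 reads lay on genes in 5 mice and 28971508 in lean mouse 2. A value of 3 reads, taken as the smallest signal, equals 2.05 normalized counts in lean mouse 2 and 3.01 to 3.41 in the others, counting error only. The member genes lay far above that limit, the lowest mean being that of Cbl at 34.6 normalized counts in obese atria.

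Insulin binds its receptor, which phosphorylates the adaptor proteins IRS1 and IRS2. These recruit phosphoinositide 3-kinase (PI3K), whose lipid product brings the kinases PDK1 (gene Pdpk1) and AKT to the membrane. AKT then phosphorylates substrates that control glucose uptake, glycogen synthesis and the FOXO transcription factors, and it relieves the block that the TSC proteins place on mTOR complex 1, which drives protein synthesis. In the heart the pathway sets fuel choice and cell size, and its response to insulin is known to be blunted in obesity. Much of this signaling is carried by phosphorylation, which RNA levels do not measure.

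None of the 35 genes passed the test between obese and lean atria after adjustment over all genes. With limma on log2(normalized count + 1), 0 of 35 had a Benjamini-Hochberg adjusted p under 0.05, against 0.746% of the 15275 genes tested. With edgeR on the recovered reads the number was also 0, and with DESeq2 it was 2, Ptpn11 and Grb14, where 2.76% of all genes passed. At an unadjusted p under 0.05 in limma, 4 members were higher in obese atria, Ptpn11, Irs2, Pdpk1 and Pik3cd, where 6.66% of all genes met that limit in that direction. The only lower member at that limit was Grb14, where 5.55% of all genes did. Together these 5 were 14.3% of the members, close to the 12.2% of all genes tested. The study had shown Insr, Irs2, Pik3cd, Pdpk1, Foxo3 and Ptpn11 among pathway genes that it selected on these same mice, so their direction is not independent evidence.

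The values of the 3 obese mice lay above those of all 3 lean mice for 6 members, Irs2, Ptpn11, Pik3cb, Pik3cd, Gsk3a and Tsc1. Among all genes tested 8.86% did so. The obese values lay below the lean values for Grb14 alone of the members, and for 9.17% of all genes. Together these 7 were 20% of the members, close to the 18% of all genes tested. The median log2 fold change of the members was 0.06, beside 0.00 for all genes tested, with 21 members above 0 and 14 below. With 1 mouse left out in turn that median ran from 0.01 (without obese mouse 2) to 0.13 (without obese mouse 3), and with quantile normalization it was 0.01. Single members ranged from -0.50 (Grb14) to 0.92 (Irs2). The map of the values by mouse shows that the obese columns were not uniform: obese mouse 2 carried many of the high values.

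**Figure D1:**
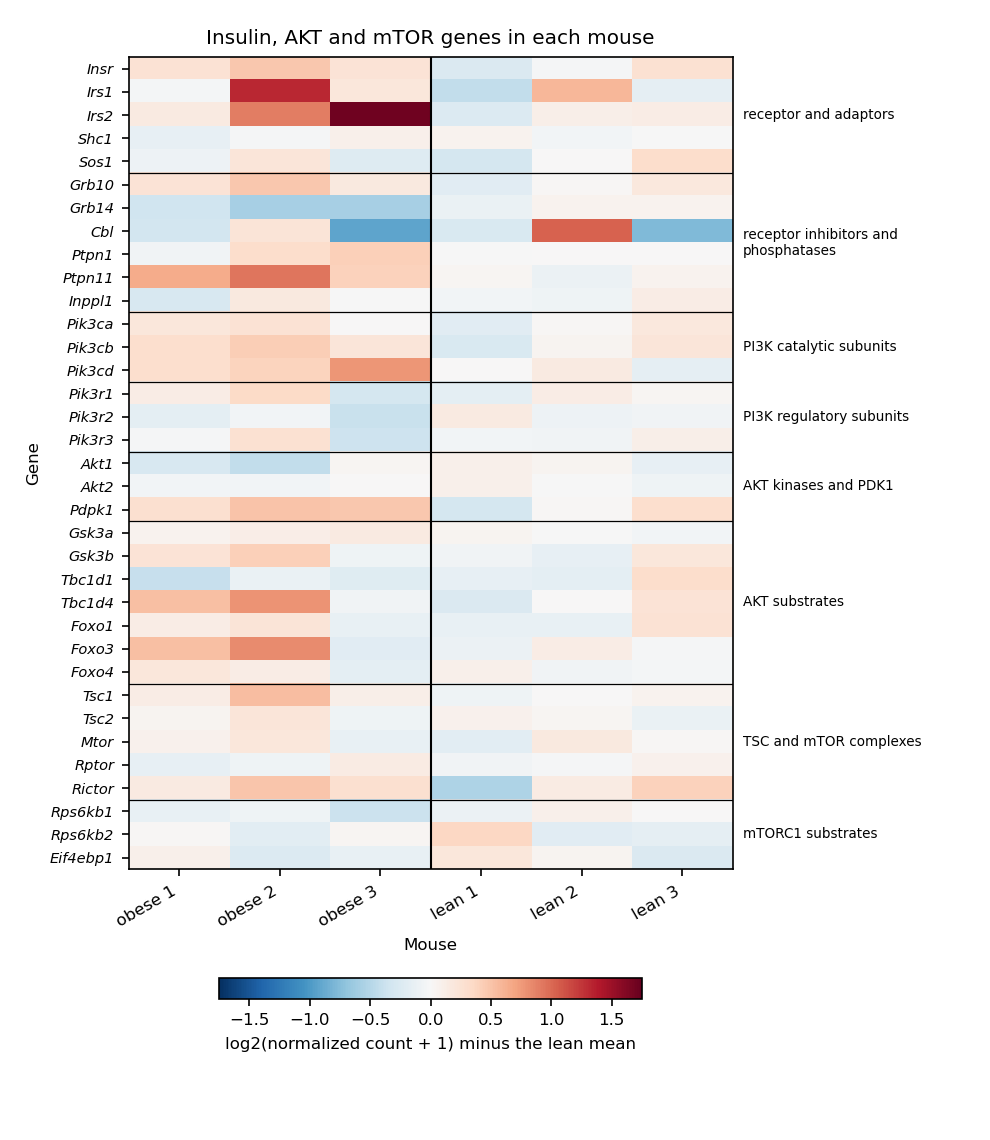
Each row is 1 of the 35 genes, grouped by role, and each column is 1 mouse; the color is log2(normalized count + 1) minus the mean of the 3 lean mice. Ptpn11 was red and Grb14 blue in all 3 obese mice, and Irs1, Irs2 and Cbl varied most between mice.

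**Figure D2:**
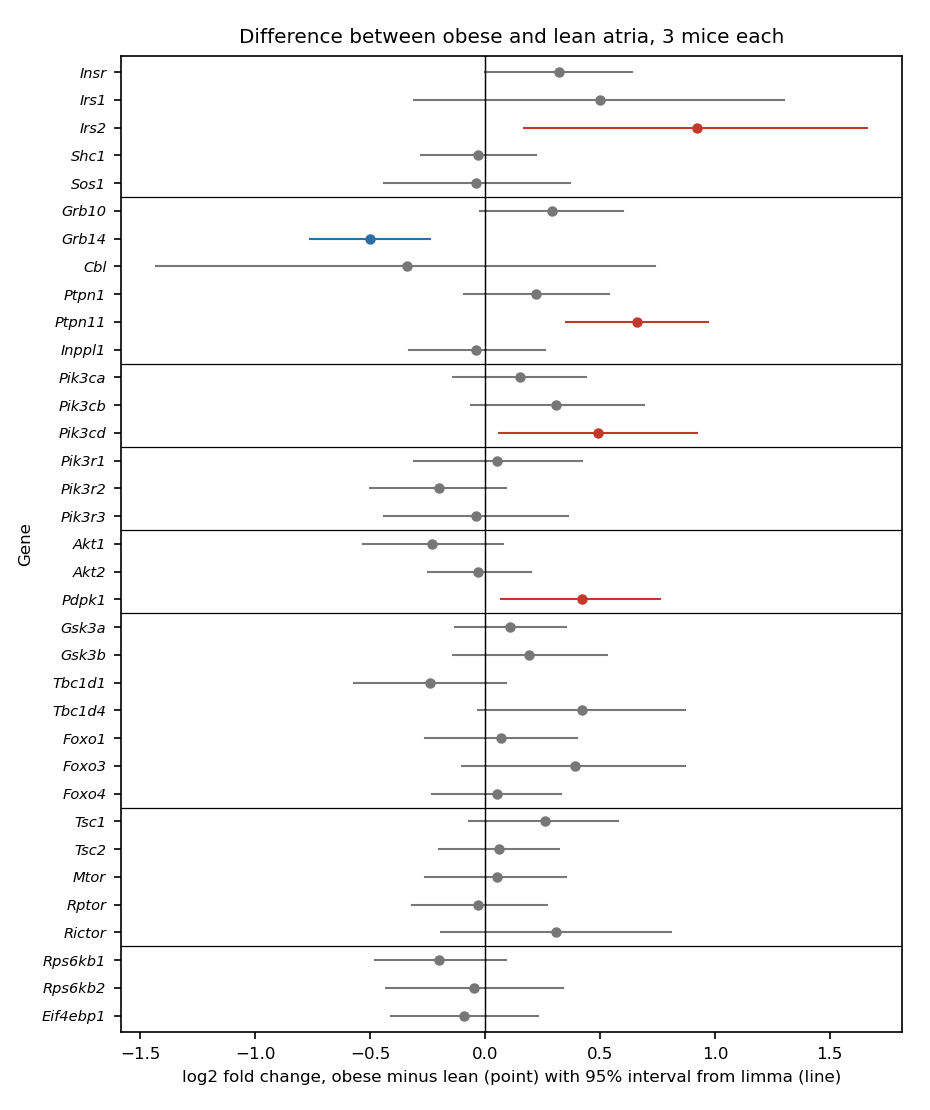
Points are log2 fold changes (obese minus lean, 3 mice each) on the horizontal axis and lines are 95% intervals from limma, with 1 gene per row; red and blue mark an unadjusted p under 0.05. The fold changes ran from -0.50 for Grb14 to 0.92 for Irs2, and 30 of the 35 intervals crossed or touched 0.

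The members differ widely in abundance. Per kilobase of exon, and averaged over the 6 mice, Akt1 had the highest level of the 35, at 953 normalized counts per kilobase. It was followed by Inppl1 at 789, which encodes a lipid phosphatase, and by Ptpn11 at 639. Cbl, which encodes a ubiquitin ligase, was the lowest at 3.37, below Irs1 at 14.2, Rictor at 18.1 and Irs2 at 21.4. The receptor gene Insr, at 140, stood in place 16. Members also differed in how much the mice of a group spread. The coefficient of variation of Akt2 was 1.97% among the obese and 5.48% among the lean mice, while that of Irs1 was 54.5% and 38.4%. For Cbl it was 39.8% and 69.3%. The median coefficient of variation of the members was 11.8% in obese and 11.2% in lean atria, beside 15.3% and 13.2% for all genes tested.

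At the receptor, Insr encodes the insulin receptor itself. It had 2025, 2368 and 2008 normalized counts in obese mice 1, 2 and 3 and 1434, 1684 and 2060.4 in lean mice 1, 2 and 3. Lean mouse 3 reached the obese range, so the groups overlapped, and the difference was 0.32 as a log2 fold change (standard error, SE, 0.14; limma adjusted p = 0.414). The gene lies on chromosome 8 of GRCm38 from 3150922 to 3279617.

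Of the adaptors that the receptor phosphorylates, Irs2 showed the largest log2 fold change of any member, and Irs1 varied more than Irs2 within both groups. Irs2 (chromosome 8 from 10986980 to 11008458) had 97.4, 163 and 288 normalized counts in obese mice and 73.9, 94.4 and 96.2 in lean mice. The groups did not overlap, but obese mouse 1 exceeded the highest lean mouse only slightly and obese mouse 3 stood far above the others. The log2 fold change was 0.92 (SE 0.34, 95% interval 0.17 to 1.66, limma adjusted p = 0.301), and of the fits with 1 mouse left out it was lowest without obese mouse 3, at 0.52. Irs1 had 97.4, 251 and 115 normalized counts in obese and 73.9, 150 and 89.6 in lean mice. Here obese mouse 2, not obese mouse 3, was the high one, and the groups overlapped (log2 fold change 0.50, SE 0.36, limma adjusted p = 0.64). It was 0.08 without obese mouse 2 and 0.79 without lean mouse 2. Irs1 shares 30.9% of its exon bases with Gm9747 on the opposite strand, and since it is unknown whether reads were counted by strand, reads of these genes cannot be told apart. Shc1 and Sos1, which link the receptor to the RAS branch, had log2 fold changes of -0.03 and -0.04 with overlapping groups.

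The smallest p-values of the members belonged to genes whose products restrain or tune the receptor. Ptpn11 encodes the phosphatase SHP2, which binds the phosphorylated adaptors and promotes RAS signaling. The gene (chromosome 5 from 121130533 to 121191397) had 5776, 7033 and 4861 normalized counts in obese mice and 3767, 3440.4 and 3841 in lean mice. All obese mice stood above all lean mice, and the lean mice were close together. The mean was 5890.1 ± 1090.2 among the obese and 3683 ± 213 among the lean mice (SD, n = 3 mice per group). This gave a log2 fold change of 0.66 (SE 0.14, 95% interval 0.35 to 0.97) with an adjusted p of 0.0657 in limma and 0.000432 in DESeq2. The unadjusted limma p was under 0.05 in 6 of the 6 fits with 1 mouse left out, with log2 fold changes between 0.53 and 0.79.

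Grb14 encodes an adaptor that binds the activated insulin receptor and inhibits its kinase. The gene (chromosome 2 from 64912476 to 65024987) differed in the other direction, with 1604, 1362.5 and 1362 normalized counts in obese mice and 1875, 2126 and 2120.5 in lean mice. Each obese mouse stood below each lean mouse. The mean was 1443 ± 140 among the obese and 2041 ± 143 among the lean mice (SD, n = 3 mice per group), which gave a log2 fold change of -0.50 (SE 0.12, 95% interval -0.76 to -0.24) with an adjusted p of 0.0862 in limma and 0.0114 in DESeq2. It too had an unadjusted p under 0.05 in 6 of 6 fits with 1 mouse left out, between -0.58 and -0.46. Grb14 was the only member with these properties in the lower direction.

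The other restraints did not separate the groups. Grb10, an imprinted gene and the relative of Grb14 with the same kind of action on the receptor, had a log2 fold change of 0.29 (SE 0.14, limma adjusted p = 0.436), of opposite sign to that of Grb14. Ptpn1 encodes the tyrosine phosphatase PTP1B, which dephosphorylates the receptor, and had 678 ± 2.93 normalized counts among the lean but 800 ± 135 among the obese mice (SD, n = 3 each). Obese mouse 1 lay below the lean mice, so the groups overlapped (log2 fold change 0.22, limma adjusted p = 0.58). Inppl1, which encodes the lipid phosphatase SHIP2, and Cbl had log2 fold changes of -0.04 and -0.34, the latter with a 95% interval from -1.43 to 0.74.

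**Figure D3:**
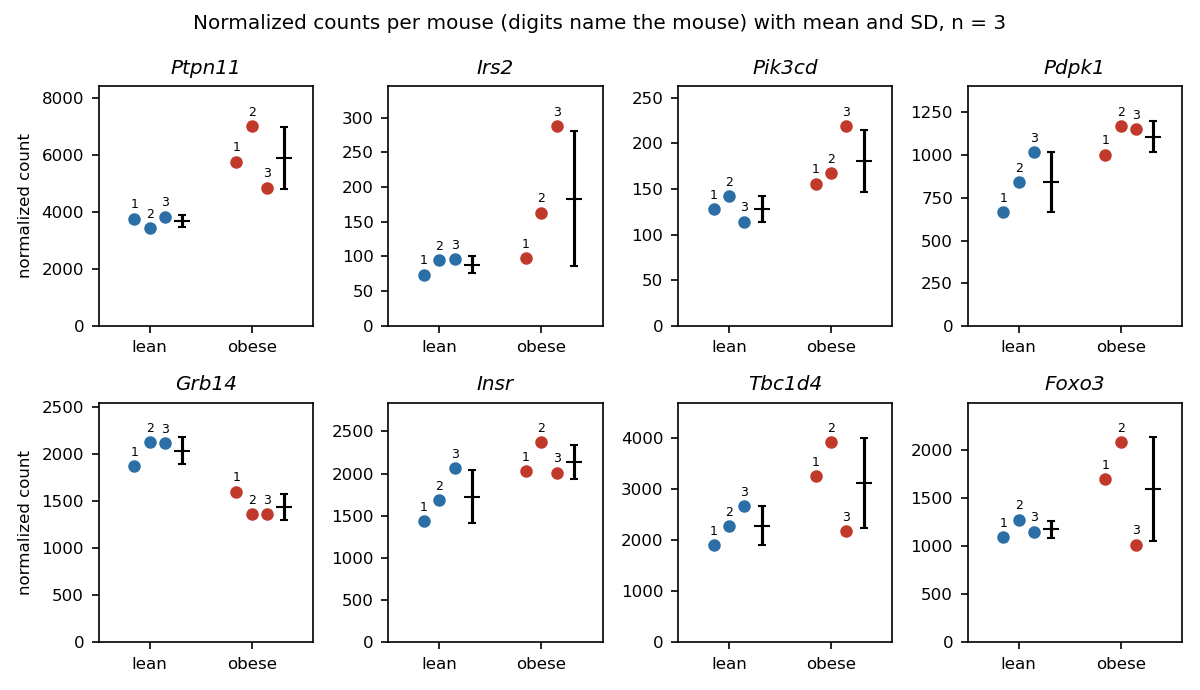
Normalized counts (vertical axes, starting at 0) of 8 members in each lean (blue) and obese (red) mouse, with digits for the mouse and black bars for the mean and SD (n = 3). Ptpn11, Irs2 and Pik3cd did not overlap upward and Grb14 downward, while obese mouse 3 lay among the lean mice for Tbc1d4 and below them for Foxo3.

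Promoter sequences are shown for Ptpn11, Irs2 and Grb14, the members with the clearest or largest differences, to set the higher genes beside the lower one. They are the 250 bases before the RefSeq start of each gene in GRCm38.p6, all 3 on the minus strand, at chr5:121191398-121191647, chr8:11008930-11009179 and chr2:65022767-65023016. RefSeq and the gene positions given above place some starts differently. The Grb14 window lies inside the span given for that gene, and the Irs2 window does not adjoin its span. Capitals mark matches on either strand to GGGCGG (GC box), CCAAT (CAAT box), CACGTG (E-box) and TGACGT (half-site of the cAMP response element), and neighbouring matches run together.
Ptpn11: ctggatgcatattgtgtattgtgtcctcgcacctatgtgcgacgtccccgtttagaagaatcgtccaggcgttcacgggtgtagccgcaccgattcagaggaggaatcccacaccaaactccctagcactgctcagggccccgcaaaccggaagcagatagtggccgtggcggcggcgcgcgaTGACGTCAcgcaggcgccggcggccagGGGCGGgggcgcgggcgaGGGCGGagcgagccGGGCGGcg
Irs2: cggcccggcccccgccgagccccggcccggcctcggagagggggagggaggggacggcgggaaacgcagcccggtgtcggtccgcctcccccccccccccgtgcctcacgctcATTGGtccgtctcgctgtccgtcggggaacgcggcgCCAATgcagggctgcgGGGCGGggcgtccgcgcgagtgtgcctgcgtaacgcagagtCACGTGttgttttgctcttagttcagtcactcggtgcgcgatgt
Grb14: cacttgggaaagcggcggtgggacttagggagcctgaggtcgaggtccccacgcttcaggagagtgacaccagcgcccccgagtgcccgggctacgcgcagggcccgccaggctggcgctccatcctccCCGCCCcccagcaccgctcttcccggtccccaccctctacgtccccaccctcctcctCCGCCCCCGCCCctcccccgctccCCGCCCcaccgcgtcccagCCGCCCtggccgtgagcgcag
The Ptpn11 promoter held the only palindromic pair of TGACGT matches among the members, starting 67 and 65 bases before the start, and 3 GC boxes. The Irs2 promoter held 1 E-box, 44 bases before the start, 1 GC box and 2 CAAT boxes. The Grb14 promoter held 5 GC boxes and no match to the other motifs. RefSeq promoters were found for 31 of the 35 members, 45 promoters in all, with a median GC content of 61.6% beside 52.4% for all 32851 promoters. A GC box was present in 64.4% of member promoters and 32.7% of all promoters, and TATAAA in 4.44% and 12.4%. An E-box was present in 4.44% of member promoters, those of Irs1 and Irs2, and in 6.02% of all. TGACGT was present in 4.44% and 6.47%. The FOXO motif GTAAACA was present in 1 member promoter, of Akt1 (2.22%), and in 3.17% of all. Those matches describe letters in these windows, not binding.

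PI3K consists of a catalytic and a regulatory subunit. All 3 catalytic genes had log2 fold changes above 0. Pik3cd, whose product is known mostly from leukocytes, had 156, 167 and 219 normalized counts in obese and 128, 142 and 114 in lean mice (log2 fold change 0.49, SE 0.19, limma adjusted p = 0.348). Pik3cb had 256, 281 and 243 in obese and 174, 216 and 243 in lean mice (0.31, SE 0.17, limma adjusted p = 0.505). Neither gene overlapped between the groups, although for Pik3cb obese mouse 3 and lean mouse 3 were nearly equal. Pik3ca, which encodes the catalytic subunit used most by the insulin receptor, had 1175, 1225 and 1036 in obese and 892, 1046 and 1164 in lean mice and overlapped (log2 fold change 0.15, limma adjusted p = 0.705). The unadjusted p of Pik3cd was under 0.05 in 3 of 6 fits with 1 mouse left out. Of leukocyte markers, 6 myeloid markers summed to 3149 to 3468 normalized counts in obese and 2609 to 3109 in lean atria, with 5 of 6 above 0 in log2 fold change. Itgam had a log2 fold change of 1.18 (limma adjusted p = 0.0106) and Cd68 one of 0.37 (limma adjusted p = 0.465), both without overlap. Ptprc, Adgre1, Fcgr1 and Csf1r overlapped, at 0.43, 0.23, 0.25 and -0.01. The 5 lymphocyte markers summed to 18.4 to 72.7 in any mouse. The part of leukocytes in the Pik3cd difference was not tested.

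None of the 3 regulatory genes separated the groups. Pik3r1, which encodes the most abundant regulatory subunits, had 1921, 2214 and 1420 normalized counts in obese and 1562, 1917 and 1799 in lean mice, so that obese mice were both the highest and the lowest (log2 fold change 0.05, SE 0.16, limma adjusted p = 0.934). Pik3r2 and Pik3r3 had log2 fold changes of -0.20 and -0.04.

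Neither AKT gene of the list passed the test at any limit, and the gene of the kinase that activates them had an unadjusted p under 0.05. Pdpk1 (chromosome 17 from 24073680 to 24150924) had 1004, 1171 and 1153 normalized counts in obese and 667, 840 and 1018 in lean mice. Lean mouse 3 passed obese mouse 1, so the groups overlapped (log2 fold change 0.42, SE 0.16, limma adjusted p = 0.318). Akt1 had 3456, 3111.5 and 4275 in obese and 4463, 4325 and 3810.3 in lean mice. Here obese mice 1 and 2 lay below all lean mice and obese mouse 3 did not (log2 fold change -0.23, SE 0.14, limma adjusted p = 0.561). Without obese mouse 3 the log2 fold change of Akt1 was -0.35 (limma adjusted p = 0.177), with an unadjusted p under 0.05. Akt2, the isoform tied most closely to glucose uptake, had 3384, 3395 and 3506 in obese and 3705, 3468.5 and 3325 in lean mice. Its log2 fold change was -0.03 with a 95% interval from -0.25 to 0.20, the narrowest of any member.

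The AKT substrates include the GTPase-activating proteins that hold glucose transporters inside the cell. Tbc1d4, which encodes AS160, had 3255, 3915 and 2176 normalized counts in obese and 1906, 2280 and 2671 in lean mice. Obese mice 1 and 2 exceeded all lean mice, obese mouse 3 did not, and the log2 fold change was 0.42 (SE 0.20, limma adjusted p = 0.447), running from 0.23 without obese mouse 2 to 0.66 without obese mouse 3. Its relative Tbc1d1 had 3161, 3862 and 3602 in obese and 3796, 3696 and 5183 in lean mice (log2 fold change -0.24, SE 0.15, limma adjusted p = 0.567). The glucose transporter gene Slc2a4 itself, no member of the list, overlapped between groups with a log2 fold change of -0.27 (SE 0.12, limma adjusted p = 0.425).

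Glycogen synthase kinase 3, which AKT inhibits, is encoded by Gsk3a and Gsk3b. Gsk3a had 935, 972 and 999.5 normalized counts in obese and 927, 894 and 871 in lean mice. The groups did not overlap, yet the log2 fold change was only 0.11 (SE 0.11, limma adjusted p = 0.738), and 28.3% of its exon bases are shared with 9130221H12Rik on the opposite strand. Gsk3b had 1233, 1386 and 985 in obese and 1001, 938 and 1198 in lean mice and overlapped (log2 fold change 0.19, limma adjusted p = 0.664).

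The FOXO factors are excluded from the nucleus by AKT. Foxo3 had 1693, 2076 and 1017 normalized counts in obese and 1094, 1276 and 1149 in lean mice. Obese mice 1 and 2 stood well above the lean mice and obese mouse 3 stood below all of them. The log2 fold change was 0.39 (SE 0.22, limma adjusted p = 0.532), and without obese mouse 3 it was 0.68 with an adjusted p of 0.025 in limma, in a fit where 2.24% of all genes passed. Without obese mouse 2 it was 0.16 (limma adjusted p = 0.876). Foxo1 had 814, 869 and 678 in obese and 682, 683 and 886 in lean mice, a log2 fold change of 0.07 (limma adjusted p = 0.897), and Foxo4 one of 0.05.

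Among the genes of the mTOR complexes and of the TSC proteins that hold mTOR complex 1 in check, Tsc1 alone did not overlap. It had 511, 682 and 504 normalized counts in obese and 447, 470 and 491 in lean mice, with obese mouse 2 far above the rest (log2 fold change 0.26, SE 0.15, limma adjusted p = 0.537, and 0.11 without obese mouse 2). Tsc2, its partner, had a log2 fold change of 0.06. Mtor, which encodes the kinase, had 813, 885 and 708 in obese and 681, 871 and 782 in lean mice (log2 fold change 0.05, 95% interval -0.26 to 0.35). Rptor, the defining subunit of complex 1, had 428, 450 and 525 in obese and 456, 467 and 500 in lean mice (-0.03, 95% interval -0.32 to 0.27). Rictor, the defining subunit of complex 2, which phosphorylates AKT and SGK1, had a log2 fold change of 0.31 (SE 0.22, limma adjusted p = 0.639) with lean mouse 1 at the lowest value, 185 normalized counts, without which it was 0.04. The 3 substrates of complex 1 all had log2 fold changes below 0, at -0.20 for Rps6kb1, -0.05 for Rps6kb2 and -0.09 for Eif4ebp1, and all overlapped.

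The balance between related genes was compared as a log2 ratio within each mouse, which no scaling of a whole sample can alter. Of 14 pairs, 2 did not overlap between the groups. The log2 ratio of Grb14 to Grb10 was 0.69, 0.22 and 0.53 in obese and 1.36, 1.32 and 1.15 in lean mice, a difference of -0.79. Every mouse had more Grb14 than Grb10 counts, and the excess was smaller in each obese than in each lean mouse. The log2 ratio of Pik3cb to Pik3ca was -2.19, -2.12 and -2.09 in obese and -2.36, -2.27 and -2.26 in lean mice, a difference of 0.16. Both pairs had an exact permutation p of 0.1 (two-sided), which is the lower limit with groups of 3, and of 0.6 after Benjamini-Hochberg adjustment over the 14 pairs. Tbc1d4 to Tbc1d1 differed by 0.66 with overlap (exact permutation p = 0.2), and Irs2 to Irs1 by 0.42 with overlap (exact permutation p = 0.7), the sign of the latter resting on obese mouse 3.

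**Figure D4:**
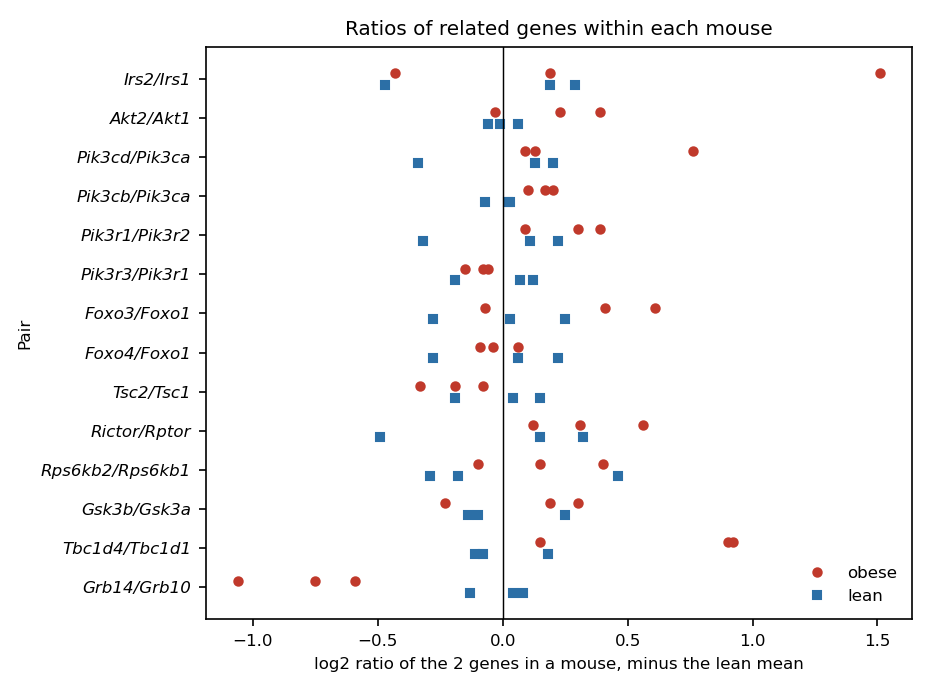
The horizontal axis is the log2 ratio of 2 related genes in a mouse minus the mean of the lean mice, for 14 pairs (rows), with obese mice as red circles and lean mice as blue squares. Grb14/Grb10 lay to the left in all 3 obese mice, with a difference of -0.79, and Pik3cb/Pik3ca lay to the right, with one of 0.16.

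Some mice had the extreme value for many members at once. Obese mouse 2 had the highest value of the 6 mice for 17 of the 35 members, where it was the highest for 19% of all genes. Lean mouse 1 had the lowest value for 12 members, against 16.7% of all genes, and obese mouse 3 for 9, against 19%. The members are long genes, with a median exon length of 7571 bases beside 4171 for all genes tested with a length, and 23 of the 35 have 7000 bases or more. Among all 3322 genes of that length obese mouse 2 was the highest for 38% and lean mouse 1 the lowest for 29.5%. In those genes the median log2 deviation from the mean of the 6 mice was 0.15 in obese mouse 2 and -0.11 in lean mouse 1, and in genes under 2000 bases it was -0.12 and 0.12.

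With this trend removed from each mouse, an alternative chosen after seeing the data, the median log2 fold change of the members went from 0.06 to 0.01. The log2 fold change of Ptpn11 was then 0.61 (SE 0.12, limma adjusted p = 0.044) and that of Grb14 was -0.56 (SE 0.11, limma adjusted p = 0.0531), where 1.17% of all genes passed. The values of Insr, Irs2, Pdpk1 and Pik3cd were 0.25, 0.87, 0.35 and 0.44, each slightly smaller than before. Tbc1d1 went from -0.24 to -0.30. The origin of the length trend was not tested.

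**Figure D5:**
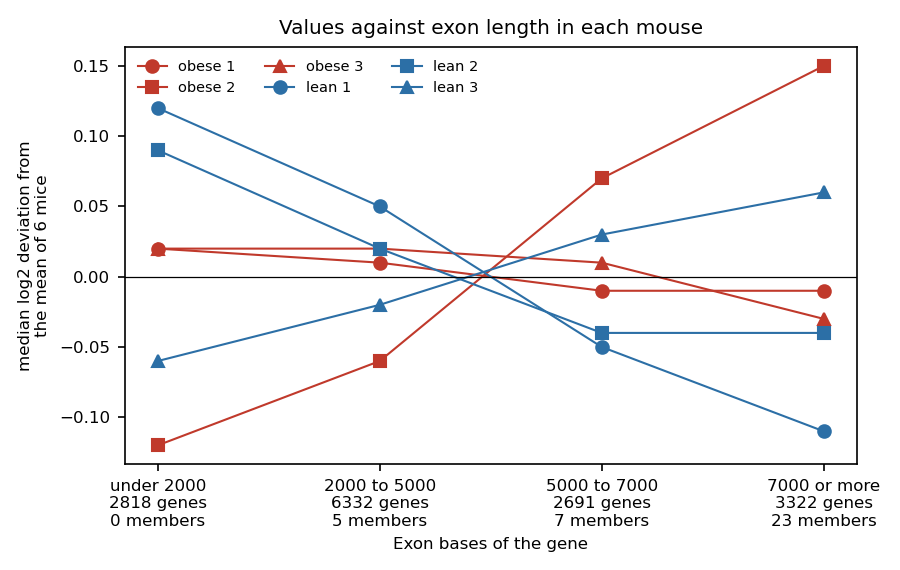
For 4 classes of exon length (horizontal axis, with numbers of genes and members) the vertical axis gives the median log2 deviation of each mouse from the mean of the 6 mice. Obese mouse 2 ran from -0.12 in the shortest to 0.15 in the longest genes and lean mouse 1 from 0.12 to -0.11.

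Beyond the 35, a list of 91 other genes of the pathway was examined, of which 89 could be tested. None had an adjusted p under 0.05 in limma or edgeR, and 5 had one in DESeq2, Foxo6, Socs3, Inpp4a, Trib3 and Grb2, where 2.76% of all genes did. At an unadjusted p under 0.05, 9 were higher and 5 lower in limma, 15.7% of those tested beside 12.2% of all genes, and the median log2 fold change was 0.06. Trib3, a pseudokinase known to bind AKT, had 131, 168 and 151 normalized counts in obese and 66.1, 92.4 and 75.4 in lean mice (log2 fold change 0.94, SE 0.21, limma adjusted p = 0.0797). Socs3, a cytokine-induced inhibitor of receptor signaling, had a log2 fold change of 0.94 (limma adjusted p = 0.11). Inpp4a, a lipid phosphatase acting on a PI3K product, had one of 0.71 (limma adjusted p = 0.122), and the ubiquitin ligase gene Cblb, relative of the member Cbl, one of 0.57 (limma adjusted p = 0.167). For each of these 4 the groups did not overlap.

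In the lower direction Foxo6, a further FOXO factor, had 151, 154 and 204 normalized counts in obese and 386, 342 and 261 in lean mice (log2 fold change -0.95, SE 0.19, limma adjusted p = 0.0591). Its direction was unlike that of Foxo1, Foxo3 and Foxo4, whose log2 fold changes were 0.07, 0.39 and 0.05. Grb2, the adaptor that brings SOS1 to phosphorylated SHC1 and binds SHP2, had 1791, 1535 and 1527 in obese and 2089, 2250.3 and 2118 in lean mice (-0.42, SE 0.11, limma adjusted p = 0.129). Tbc1d7, the third subunit of the TSC complex, had a log2 fold change of -0.63 (limma adjusted p = 0.119), with Tsc1 and Tsc2 at 0.26 and 0.06. Ddit4l, an inhibitor of mTOR complex 1, had one of -0.90 (limma adjusted p = 0.165). Sgk1, the kinase that the study was about, shares its activating kinases with AKT and had 864, 871 and 988 in obese and 719, 784 and 730 in lean mice (log2 fold change 0.28, SE 0.12, limma adjusted p = 0.357).

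Some genes known as FOXO targets passed the adjusted threshold. Of 18 tested, 3 were higher in obese atria at an adjusted p under 0.05 in limma, where 0.484% of all genes were, and the median log2 fold change was 0.30. At an unadjusted p under 0.05, 7 were higher and 0 lower, where 6.66% and 5.55% of all genes were. The list was chosen with earlier results of these data known, so these counts cannot show whether FOXO targets as a set were higher. Pdk4, which encodes the kinase that blocks pyruvate oxidation, had 58780, 64656 and 28363 normalized counts in obese and 5700.2, 4800.3 and 5656.5 in lean mice, a log2 fold change of 3.15 (SE 0.26, limma adjusted p = 0.000719). Cdkn1a, an inhibitor of the cell cycle, rose by 2.32 on the log2 scale (limma adjusted p = 0.000185), and Txnip, an inhibitor of glucose uptake, by 1.62 (limma adjusted p = 0.00937). These genes also respond to other regulators, among them fatty acid sensing receptors and glucocorticoids. Fbxo32, an atrophy-related ubiquitin ligase gene, had 5095, 5272.5 and 2050.2 in obese and 1737, 1987 and 1855 in lean mice, a log2 fold change of 1.03 (limma adjusted p = 0.158). Klf15, Cat and Bnip3 followed with log2 fold changes of 0.71, 0.63 and 0.67 (limma adjusted p = 0.129, 0.208 and 0.389), Klf15 without overlap of the groups. These 7 genes were not alike across the obese mice. In obese mouse 3, 6 of the 7 had their lowest obese value, but Cdkn1a had its highest there, at 2140, 2427 and 2943 in obese mice 1, 2 and 3. Foxo3 was also lowest in obese mouse 3, and a link between it and these genes was not tested. Of the 18, 12 had log2 fold changes above 0 and 6 below. Below 0, Gadd45a, Sesn3, Tob1, Trim63, Sod2 and Pik3ip1 had log2 fold changes of -0.38, -0.37, -0.10, -0.07, -0.08 and -0.03, all with overlapping groups. Without obese mouse 3, 8 of the 18 had an adjusted p under 0.05, where 2.24% of all genes did, without a variance trend 0 did, and without lean mouse 2 Txnip did not (limma adjusted p = 0.0678).

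Markers of cell types also moved with the groups or with single mice. The tissue carried its defining atrial markers, with Myl7 between 27168 and 60190.2 and Nppa between 171702 and 333975 normalized counts in the 6 mice. The summed level of 6 atrial myocyte markers was 637233 and 739701 in obese mice 1 and 2. It was 1071735 in obese mouse 3 and 978492 to 1025331 in lean mice, with 6 of 6 log2 fold changes below 0. These 6 were not alike either. Tnnt2 and Sln lay below all lean mice in every obese mouse, with log2 fold changes of -0.44 and -0.32 (limma adjusted p = 0.344 and 0.352). Myl7, Myl4, Nppa and Myh6 overlapped, at -0.66, -0.44, -0.40 and -0.20. Obese mice 1 and 2 were the mice with high Foxo3 and Tbc1d4. The summed level of 5 endothelial markers was 14017 to 15687 in obese and 11650.2 to 12447.5 in lean atria, 5 of 5 above 0. These 5 were not alike. Pecam1 had a log2 fold change of 0.57 (limma adjusted p = 0.0504) and Tie1 one of 0.16, both without overlap. Cdh5, Kdr and Tek, at 0.04, 0.14 and 0.18, overlapped between the groups. The summed level of 5 fibroblast markers, 2 of 5 above 0, overlapped. The 4 ventricular markers, 0 of 4 above 0, summed to 17399 in lean mouse 2 and 6882 to 9866 in the others. Lean mouse 2 was the highest for Myl2, Myl3 and Irx4 but not for Myh7, at 3677 beside 3697 in lean mouse 3. The 6 adipocyte markers, 5 of 6 above 0, summed to 1257 to 3718 in obese and 568 to 2747 in lean atria, and the 4 brown adipocyte markers, 3 of 3 tested above 0, to 616 to 1283 and 187 to 330. Of these, Ucp1 and Cidea had log2 fold changes of 4.43 and 1.21 (limma adjusted p = 0.0446 and 0.031). In whole tissue, fewer cells of a type and less RNA per cell cannot be told apart. The part of cell composition in the differences of the members was not tested.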

How the data were processed

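RNA of the atria of 3 obese and 3 lean mice was sequenced by the authors as single-end reads from directional libraries. The authors aligned reads with STAR to GRCm38 (Ensembl annotation), kept uniquely mapped reads, assigned them to genes with Salmon and scaled them with DESeq2. Their deposited signal is a gene's read count over 1 size factor per sample. The authors also deposited a mean, the log2 fold change with its error, p-values, and scores (the test statistic and a ranking metric) for their own comparison, none of which was used.

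The design provided for counts or normalized values, and its test for normalized values was used: limma 3.58.1 in R 4.3.3 (lmFit, eBayes with a variance trend) on log2(value + 1), for the 15275 of 24679 expressed genes with a mean of at least 10, all 6 mice, no covariates, Benjamini-Hochberg adjustment and a threshold of 0.05. Fold changes on that scale understate changes of low genes. The fit was tested on simulated data. Dividing each sample by its smallest value gave whole reads for 100% of values (tolerance 0.001), on which edgeR 4.0.16 called 87 genes and DESeq2 1.42.0 called 443. A row without a gene name held 0% of the values and was left out. Exact permutation tests are two-sided. Samples are called mice, although the labels do not state that each is 1 animal, and p-values measure only the spread between these samples, which may be partly technical.

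Members and gene lists were chosen with earlier results of these data known. Values per mouse are given for members with an unadjusted p under 0.05 or without overlap and for a fixed set of central members, and Insr and Foxo3 were added after their values were seen. Of the other pathway genes and FOXO targets, those past the adjusted threshold, up to 4 in each direction by smallest p, and Sgk1 are named, and Slc2a4, Sod2 and Pik3ip1 were added likewise. Markers are given by list, with those past the threshold and with each atrial myocyte, endothelial and myeloid marker. Ventricular markers are named for lean mouse 2. Gene positions are as the authors deposited them, exon lengths are from GENCODE M21 and promoters from RefSeq (GRCm38.p6), and 2 listed genes with older names were matched by identifier. Values of genes overlapping a gene on the other strand are uncertain, since the use of strand in counting is not given in the sources used here. Besides Irs1 and Gsk3a, Inppl1 shares 18.8% of its exon bases with Gm10602 and Rps6kb2 16% with Ptprcap, both on the opposite strand. Pik3r3 shares 24.3% with Gm49337 on the same strand, where counting by strand could not separate the reads. Alternatives were another normalization, no variance trend, no filter on low values, a pseudocount of 0.1, edgeR, DESeq2, the replicate number as a block, mitochondrial genes left out, each mouse left out and, chosen after seeing the data, removal of each mouse's trend with exon length (lowess).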

Additional observations from a re-analysis of the deposited data

How the results depend on the processing

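The number of members with an adjusted p under 0.05 was 0 with quantile normalization, no variance trend, no filter, a pseudocount of 0.1, edgeR, the replicate block and mitochondrial genes left out. It was 2 with DESeq2, 1 with the exon length correction and 0 to 2 with each mouse left out, 2 without obese replicate 3 (Ptpn11 and Foxo3). Members higher at an unadjusted p under 0.05 numbered 2 without a variance trend, 7 with DESeq2 and 1 to 8 with each mouse left out (1 without lean replicate 1, 8 without lean replicate 3, 7 without obese replicate 3), beside 4. Members lower numbered 2 with the length correction and 1 to 2 with each mouse left out (2 without obese replicate 3, Grb14 and Akt1), beside 1. Of all genes tested, 1864 of 15275 met that limit in either direction in the main fit. The number was 1717 of 15275 without a variance trend, 1781 of 16054 with DESeq2 and 1973 of 15163 with the length correction. It was 1483 of 15291 without lean replicate 1, 1790 of 15320 without lean replicate 3 and 2227 of 15297 without obese replicate 3. Other pathway genes past the threshold numbered 5 with DESeq2, 1 with the length correction (Foxo6) and 0 to 4 with each mouse left out, 4 without obese replicate 3, and FOXO targets 0 without a variance trend, 5 with DESeq2 and 2 to 8 with each mouse left out. Over all genes the count was 114, but 0 without a variance trend (1717 at an unadjusted p under 0.05), 443 with DESeq2, 177 with the length correction, 14 without lean replicate 2, 19 without lean replicate 3, 24 without obese replicate 2, 50 and 52 without replicate 1 of the lean or obese mice and 342 without obese replicate 3.

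The direction of 14 members turned when single mice were left out, with log2 fold changes from -0.09 to 0.03 for Shc1, -0.19 to 0.11 for Sos1, -0.73 to 0.18 for Cbl, -0.14 to 0.08 for Inppl1, -0.09 to 0.23 for Pik3r1, -0.19 to 0.12 for Pik3r3, -0.06 to 0.01 for Akt2, 0.00 to 0.20 for Foxo1, -0.02 to 0.16 for Foxo4, -0.02 to 0.13 for Tsc2, -0.05 to 0.13 for Mtor, -0.11 to 0.04 for Rptor, -0.15 to 0.13 for Rps6kb2 and -0.22 to 0.01 for Eif4ebp1. The length correction turned Pik3r1 (-0.01), Mtor (-0.02) and Tsc2 (0.00, just below 0). Leave-one-out differences of log2 ratios ran from -0.12 to 0.85 for Irs2/Irs1, -0.16 to 0.09 for Foxo4/Foxo1 and -0.02 to 0.24 for Gsk3b/Gsk3a. The causes were not tested. Of 351 fold changes of members and 4 other genes under settings with all 6 mice, 342 kept direction and side of the threshold.

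The replicate numbers only name the mice: deviations of same-numbered mice correlated at 0.116, -0.027 and -0.00386. With the replicate block 0 members and 157 genes in all had an adjusted p under 0.05. At an unadjusted p under 0.05, 5 members were higher and 1 lower, where 1714 of all 15275 genes tested met that limit in either direction. With 3 mice a group the narrowest 95% interval of a member, that of Akt2, ran from -0.25 to 0.20 on the log2 scale, which limits what could be shown, and all directions rest on the sample titles.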
